A study of Homo sapiens with 33 samples.

Results

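The genes of the mitogen-activated protein (MAP) kinase cascade and the dual-specificity phosphatases were examined on cDNA membrane arrays of 2 human cell lines. Members were all spots annotated with exactly 1 gene symbol that starts with MAP4K, MAP3K, MAP2K, MAPK or DUSP. This gave 106 spots of 56 genes, out of 34560 spots on the array and 18025 spots with 1 symbol. By tier there were 5 spots of 3 MAP4K genes, 29 spots of 14 MAP3K genes, 4 spots of 3 MAP2K genes and 17 spots of 9 MAP kinases (MAPK followed by a number). A further 18 spots belonged to 8 genes named after a kinase they bind or are acted on by, called MAPK-linked below, and 33 spots to 19 DUSP genes. MAPK3, MAPK14, MAP2K1, MAP2K2 and MAP2K3 matched no spot by this rule and are not analysed here. Where a gene had several spots, they are lettered from the brightest (a) to the dimmest.

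In this cascade a signal is passed down by phosphorylation, from MAP4 and MAP3 kinases to MAP2 kinases and from these to the MAP kinases of the ERK, JNK and p38 families, which act on transcription factors and other kinases. Some dual-specificity phosphatases, the MAP kinase phosphatases, remove the phosphates from both the threonine and the tyrosine of an active MAP kinase. Several of their genes are switched on by the pathway they limit. The DUSP class here was chosen by symbol and is not limited to these. Tumour necrosis factor alpha (TNF) engages the cascade through its receptor and the MAP3 kinase MAP3K7, in monocytes and in gut epithelium alike. Much of this control acts on proteins, which RNA arrays do not measure.

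The groups were CaCo-2 cells, a colon carcinoma line with epithelial features, treated with TNF (5 arrays) or unstimulated (5 arrays), and THP-1 cells, a monocytic leukaemia line, treated with TNF (7 arrays) or unstimulated (5 arrays). TNF was given at 5 ng/ml for 60 min. The 33 deposited columns were reduced to these 22 arrays because 10 pairs of columns held the same readings, and 1 of those pairs carried opposite treatment labels and was left out. The labels do not tell whether replicate arrays were made from different cultures. The p-values therefore rest on array-to-array spread that could be purely technical, and the precision is limited by the number of arrays. Each array averages a whole culture, so fewer expressing cells and less RNA per cell cannot be told apart. Levels are log2 of the normalised intensity, and a level of 1 spot is not set against that of another spot. At the members the median SD between arrays of a group was 0.051 in CaCo-2 TNF, 0.042 in CaCo-2 control, 0.040 in THP-1 TNF and 0.035 in THP-1 control, in log2 units. A value of exactly 0 was taken as missing, not as a low level, since many spots at 0 in a single column were above 0 in the summed column it was paired with. That share was 41.4% to 46.2% in 7 CaCo-2 pairs and 33.5% to 34.0% in 3 THP-1 pairs, so a 0 was more often not repeated in CaCo-2 than in THP-1. THP-1 control replicate 3 was the only array taken from a summed column, divided by 3, since it had no single partner. It also stood apart in its values. Of its spots 3.24% lay near 1/3 or 2/3 of the median of the other THP-1 arrays (within 0.15 on the log2 scale). In THP-1 control replicate 4 the share was 0.00555%. What part the different kind of column has in this was not tested. The lines were checked against marker genes. The myeloid marker LAPTM5 was above 0 on 1 of 10 CaCo-2 and 12 of 12 THP-1 arrays (Fisher's exact test, adjusted p = 0.0267), but the other 9 spots of 5 further myeloid genes did not pass. PTPRC and TYROBP were above 0 on at least 9 arrays of each line, the 4 CD4 spots on 1 to 10 CaCo-2 and 6 to 12 THP-1 arrays, and the 2 CYBB spots on 4 and 3 CaCo-2 against 10 and 11 THP-1 arrays (adjusted p = 0.701 and 0.311). The epithelial genes VIL1 and CDH17 were above 0 in both lines too, and of 2 spots for ELF3 1 was above 0 on 8 of 10 CaCo-2 and 0 of 12 THP-1 arrays (adjusted p = 0.0496) while the other leaned the opposite way, at 2 of 10 and 11 of 12 arrays (adjusted p = 0.188). VIL1 was higher in CaCo-2 after TNF by 0.13 ± 0.02 (log2 difference, limma, adjusted p = 0.00829). The summed intensity of the 10 myeloid spots was 1.99 to 3.17 in CaCo-2 arrays and 2.60 to 3.69 in THP-1 arrays, and that of the 5 epithelial spots 0.682 to 1.09 and 0.593 to 1.01. None of 10 fibroblast and endothelial spots passed between the lines, and the lymphocyte genes had no spot.

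In the single columns, the MAP3 kinases gave a signal on fewer arrays of CaCo-2 than of THP-1 cells. Per array, 44.8% to 65.5% of the MAP3K spots were above 0 in CaCo-2 cells (median 53.4%, n = 10), against 58.6% to 82.8% in THP-1 cells (median 75.9%, n = 12). The 2 ranges overlapped, and all spots of the array gave medians of 64.6% in CaCo-2 and 66.5% in THP-1. Of the 29 MAP3K spots, 23 were above 0 less often in CaCo-2 than in THP-1 and 6 more often, whereas over all spots 42.8% were less and 35.9% more often above 0 in CaCo-2. The 7 spots of MAP3K7 were all among those 23, and spots of 1 gene share their source. The MAPK-linked spots leaned the same way (14 less and 3 more often, of 18), and the DUSP spots did not (11 less and 12 more often, of 33). These counts describe the spots and were not tested as lists. The counts changed with how zeros were read, for the MAP3K spots and for all spots. Counting a paired array as at 0 only where its summed column was 0 too, which could fill in 6 of 10 CaCo-2 but 3 of 12 THP-1 arrays, 15 MAP3K spots were less and 10 more often above 0 in CaCo-2, against 30.7% and 44.9% of all spots. The per-array medians for MAP3K were then 72.4% in CaCo-2 and 77.2% in THP-1, against 79.3% and 67.2% for all spots. What part the zeros that were not repeated have in the lean was not tested. In the MAPK tier, CaCo-2 TNF arrays had 82.4% to 94.1% of spots above 0 and CaCo-2 control arrays 58.8% to 88.2%, again with overlap. Of all members, 12 spots were above 0 on every array and 1 (DUSP4 spot d) on none.

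**Figure D1:**
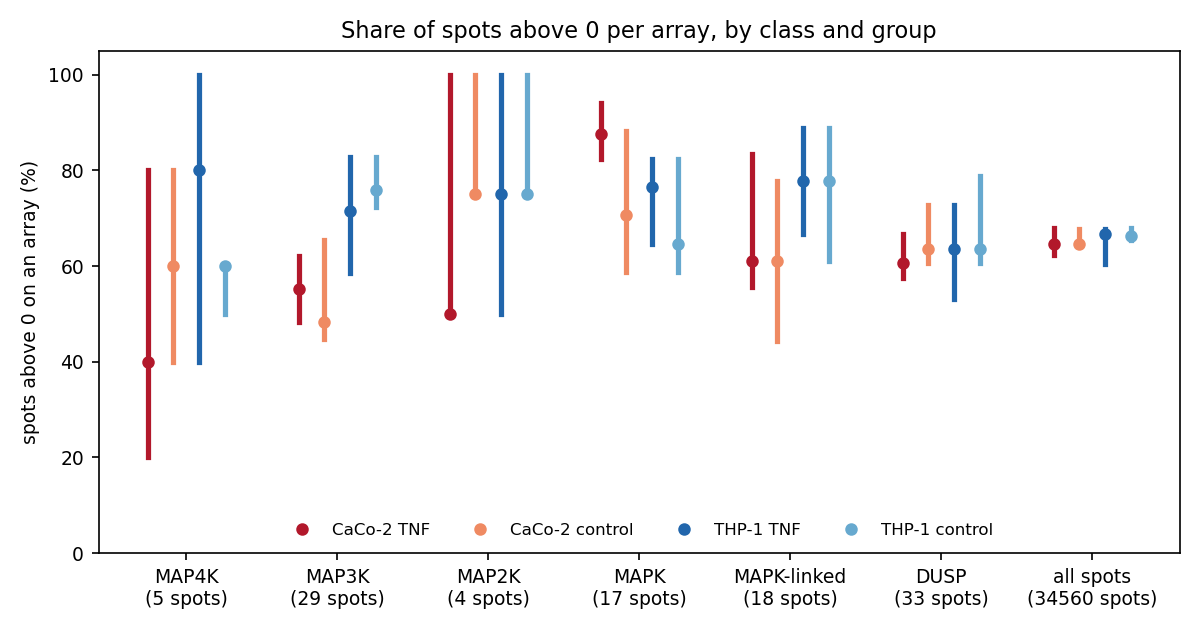
Share of spots above 0 on each array, in percent, for the 6 classes and for all spots. Dots are the median array of each group and bars run to the lowest and highest array. The MAP3K bars of the CaCo-2 groups lie mostly below those of the THP-1 groups, while the bars for all spots nearly coincide.

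Spot by spot, 3 members passed the test of arrays above 0 between the lines (Fisher's exact test on 10 CaCo-2 and 12 THP-1 arrays, both treatments pooled, two-sided, adjusted over all 34560 spots). This test was not planned and was added after the values were seen. It counts each 0 as not above 0, although zeros were more often not repeated in CaCo-2 than in THP-1. The background was 0.284% of all spots, with 0.162% above 0 more often and 0.122% less often in CaCo-2. At an unadjusted p under 0.05 there were 10 members, against 6.87% of all spots. The first was MAPK8IP3 spot b, for a scaffold that binds JNK kinases and links cargo to motor proteins. It was listed at 0 on all 5 CaCo-2 TNF and all 5 CaCo-2 control arrays. In THP-1 cells its levels ran from -3.10 over a median of -3.06 to -3.0 with TNF, and were -3.01, -2.99, -3.07, -3.17 and -3.04 in control arrays. Every THP-1 array thus had a reading above 0 and no CaCo-2 array did (adjusted p = 0.00382). These THP-1 levels lay near the array floor, the lowest positive deposited value. That floor was 0.130 on CaCo-2 control replicate 1, 0.134 and 0.136 on CaCo-2 TNF replicates 1 and 2, and 0.0921 to 0.108 on the other CaCo-2 arrays. On THP-1 arrays it was 0.105 to 0.117, and 0.0378 on control replicate 3. Without the first 3 CaCo-2 arrays named, the adjusted p was 0.0237. What part the floor has in the difference was not tested.

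The other 2 were kinases. MAP3K3 spot b, for a MAP3 kinase upstream of ERK5-type, JNK and p38 signalling, was at 0 on 5 of 5 CaCo-2 TNF and 4 of 5 CaCo-2 control arrays, with -2.26 on the remaining one. In THP-1 cells it was measured on all 12 arrays, from -2.36 over -2.32 to -2.26 with TNF and at -2.35, -2.27, -2.29, -2.32 and -2.34 without (adjusted p = 0.0267). The single CaCo-2 level lay at the upper end of the THP-1 levels. MAPK12 spot a, for the p38 gamma kinase, went the other way. It was measured in CaCo-2 cells at -2.74, -2.85, -2.88, -2.87 and -2.89 with TNF and at -2.83, -2.81, -2.84, -2.81 and -2.92 in control arrays. In THP-1 cells it was at 0 on 6 of 7 TNF and 4 of 5 control arrays, and the others stood at -2.68 and -2.80 (adjusted p = 0.0496). With values of 0 raised to the lowest positive value of each array and tested as levels, MAPK8IP3 spot b and MAP3K3 spot b were the members that passed, both lower in CaCo-2, in control cells (0.237% of all spots lower) and after TNF (0.446%). Nearly all CaCo-2 values of these 2 spots were then filled in. That fit therefore restates the counts of arrays above 0 and is no separate result on levels.

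None of the 3 genes had a second spot that passed. MAPK8IP3 spot a was above 0 on 6 of 9 CaCo-2 arrays with a reading and 11 of 12 THP-1 arrays, MAP3K3 spots a and c on 6 of 10 and 5 of 10 CaCo-2 against 7 of 12 and 5 of 12 THP-1 arrays, and MAPK12 spot b on 5 of 10 CaCo-2 against 10 of 12 THP-1 arrays. The MAPK12 spots thus leaned in opposite directions. With each of the 22 arrays left out in turn, the calls of MAPK8IP3 spot b and MAP3K3 spot b held in 22 of 22 runs, and that of MAPK12 spot a in 2 of 22 (adjusted p up to 0.0915). Counting a paired array as at 0 only where its summed column was 0 too left MAPK8IP3 spot b (adjusted p = 0.00594) and not MAP3K3 spot b (0.115) or MAPK12 spot a (0.104). Next in order came MAP2K4 spot b, for an activator of JNK and p38, at 4 of 10 CaCo-2 and 12 of 12 THP-1 arrays (adjusted p = 0.198), and MAP4K1, a MAP4 kinase of blood cells, at 5 of 10 and 11 of 11 (adjusted p = 0.394). Neither passed.

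**Figure D2:**
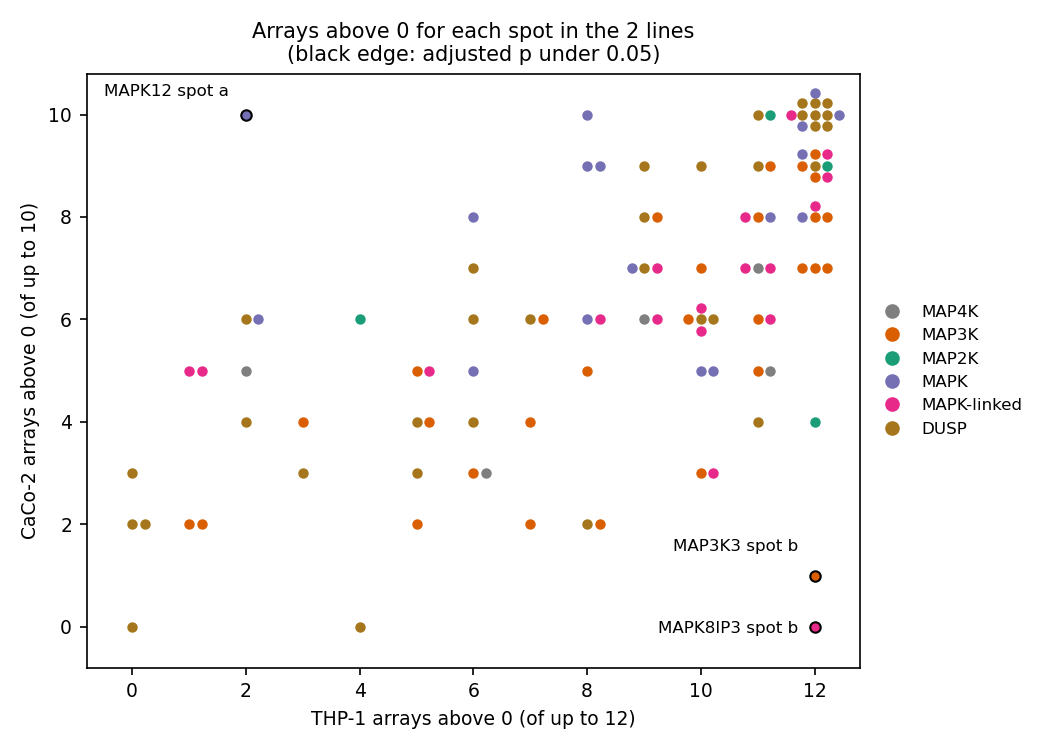
Number of arrays above 0 for each of the 106 spots, CaCo-2 on the vertical and THP-1 on the horizontal axis; points that would coincide are shifted slightly and colours give the class. The 3 spots with a black edge passed the test, and MAPK8IP3 spot b lies at 0 of 10 CaCo-2 and 12 of 12 THP-1 arrays.

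On levels, 64 member spots had at least 3 measured arrays in both control groups and 63 in both TNF groups, and these were tested with limma. The remaining 42 and 43 could not be. In control cells 0 of 64 members passed (5 at an unadjusted p under 0.05), against 1.59% of all spots (18.3% unadjusted). After TNF 1 of 63 passed, higher in CaCo-2 than in THP-1 (8 unadjusted), against 3.53% of all spots, and 3.03% in that direction (22.1% unadjusted). The member that passed was DUSP23, a small phosphatase without the kinase-binding domain of the classical MAP kinase phosphatases. Its levels were -1.30, -1.24, -1.10, -1.25 and -1.26 in CaCo-2 TNF arrays, and ran from -1.39 over -1.36 to -1.31 in THP-1 TNF arrays. All CaCo-2 values lay above all THP-1 values, by 0.13 ± 0.03 on the log2 scale (estimate ± SE, 1.09-fold, 95% interval 0.07 to 0.19, adjusted p = 0.0255). In control cells the levels were -1.28, -1.23, -1.16, -1.27 and -1.32 in CaCo-2 and -1.38, -1.31, -1.38, -1.39 and -1.40 in THP-1. The groups overlapped there by 1 THP-1 array, and the difference of 0.12 ± 0.03 missed the threshold (adjusted p = 0.0585). The call after TNF rested on single arrays: it was lost without CaCo-2 TNF replicate 4 (0.10, adjusted p = 0.0508), THP-1 TNF replicate 1 (0.0530) or THP-1 TNF replicate 2 (0.0545), with zeros raised (0.0606) and without normalization (1.00).

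**Figure D3:**
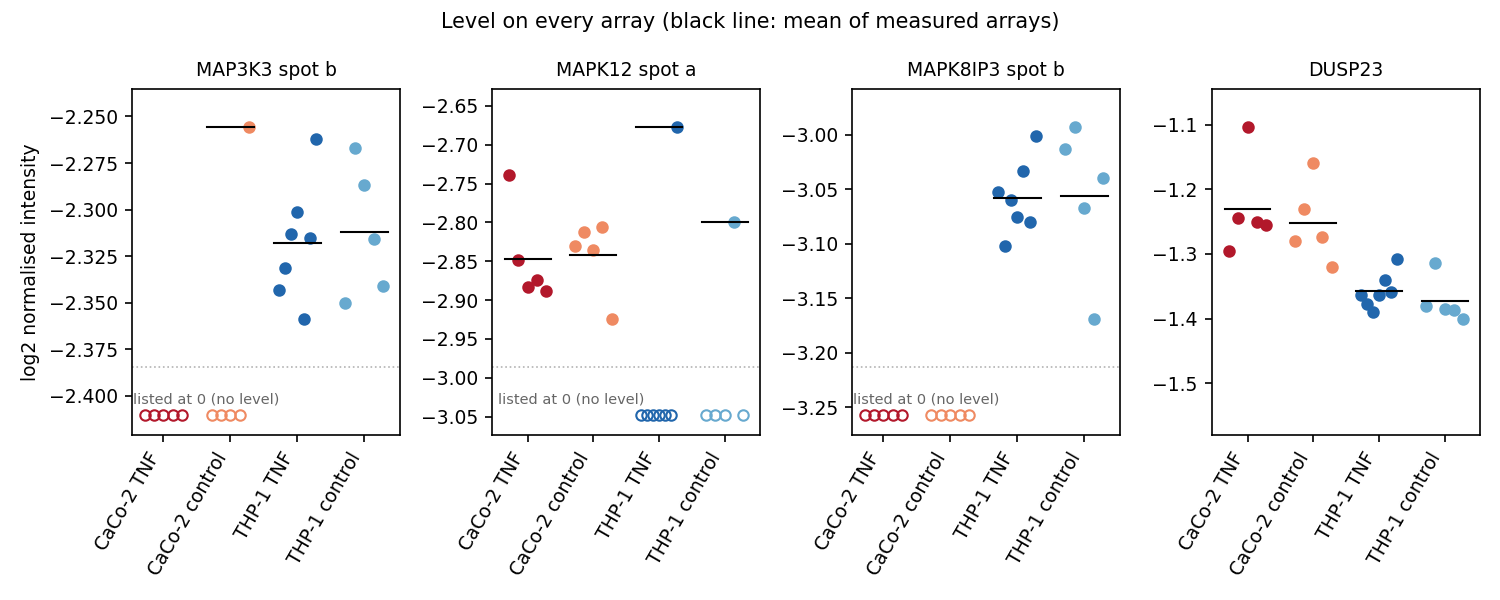
Log2 normalised intensity on every array of MAP3K3 spot b, MAPK12 spot a, MAPK8IP3 spot b and DUSP23 in the 4 groups; each panel has its own axis. Filled dots are measured arrays, black lines their group mean, and open dots below the dotted line are arrays listed at 0, which have no level. For DUSP23 every CaCo-2 TNF array lies above every THP-1 TNF array.

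The proximal promoters of the 4 genes with a spot that passed between the lines are shown as sequence context. The calls belong to single spots and not to the genes as a whole. Each runs from 250 bases before to 50 bases after the transcription start in RefSeq (GRCh38.p14), 5′ to 3′ on the gene's strand: chr1:159780712-159781011 (plus) for DUSP23, chr22:50261634-50261933 (minus) for MAPK12, chr17:63622167-63622466 (plus) for MAP3K3 and chr16:1705945-1706244 (plus) for MAPK8IP3. Capitals mark motif matches on either strand.
DUSP23: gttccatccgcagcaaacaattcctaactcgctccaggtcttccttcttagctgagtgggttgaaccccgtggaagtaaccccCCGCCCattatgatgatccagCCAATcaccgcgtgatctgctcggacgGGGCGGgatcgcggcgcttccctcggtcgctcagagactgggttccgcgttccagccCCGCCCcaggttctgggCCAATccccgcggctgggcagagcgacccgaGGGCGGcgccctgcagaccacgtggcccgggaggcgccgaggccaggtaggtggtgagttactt
MAPK12: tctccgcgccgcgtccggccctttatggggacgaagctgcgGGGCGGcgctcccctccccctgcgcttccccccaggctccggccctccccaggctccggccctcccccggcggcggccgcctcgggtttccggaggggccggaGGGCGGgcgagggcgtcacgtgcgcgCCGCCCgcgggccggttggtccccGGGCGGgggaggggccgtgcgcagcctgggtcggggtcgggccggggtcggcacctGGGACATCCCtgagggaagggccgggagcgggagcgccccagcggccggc
MAP3K3: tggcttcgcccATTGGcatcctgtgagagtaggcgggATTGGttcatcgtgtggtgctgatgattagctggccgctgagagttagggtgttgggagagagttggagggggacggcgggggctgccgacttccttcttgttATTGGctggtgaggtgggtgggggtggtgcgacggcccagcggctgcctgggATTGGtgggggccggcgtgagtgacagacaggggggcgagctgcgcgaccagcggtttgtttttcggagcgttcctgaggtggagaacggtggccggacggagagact
MAPK8IP3: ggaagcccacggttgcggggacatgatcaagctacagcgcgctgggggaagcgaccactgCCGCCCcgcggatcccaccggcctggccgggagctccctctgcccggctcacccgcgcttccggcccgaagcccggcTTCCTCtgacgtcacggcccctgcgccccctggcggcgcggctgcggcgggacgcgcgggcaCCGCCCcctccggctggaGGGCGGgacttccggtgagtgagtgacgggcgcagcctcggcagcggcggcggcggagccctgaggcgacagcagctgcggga
The motifs searched were the GC box GGGCGG, the CCAAT box CCAAT, the TATA box TATAAA, the AP-1 site TGANTCA bound by factors at the end of the JNK and ERK pathways, the core GAGGAA bound by the myeloid factor PU.1, and the NF-kB site. No matches overlapped. The GC box, present in 45.0% of all 35116 promoters in the table, occurred 4 times in DUSP23, 4 times in MAPK12 and 3 times in MAPK8IP3 and not in MAP3K3. The CCAAT box, in 34.6% of all promoters, occurred 4 times in MAP3K3 and 2 times in DUSP23. MAPK8IP3 had 1 PU.1-type core (27.9% of all promoters) and MAPK12 had 1 NF-kB match at the start site (5.91%). The AP-1 site (7.71%) and the TATA box (11.5%) were in none of the 4 windows. A match describes letters in the window and is no evidence of binding.

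Among the kinases no level difference between the lines passed. In the MAP4K tier, 3 of 5 spots could be tested in control cells. MAP4K1 stood at -2.59 to -2.54 on 3 CaCo-2 control arrays and at -2.64 to -2.51 on 4 THP-1 control arrays, and the ranges overlapped in full (difference 0.03 ± 0.05, adjusted p = 0.805). MAP4K4 spot a, for a kinase that acts on the JNK branch, differed by 0.00 ± 0.03 (adjusted p = 0.989). MAP3K6 spot a differed by 0.01 ± 0.03 in control cells (adjusted p = 0.932) and by -0.02 ± 0.03 after TNF (0.750). The MAPK tier had medians of 0.01 in control cells (11 spots tested, CaCo-2 minus THP-1, log2) and 0.02 after TNF (15 spots), and the MAP3K tier 0.02 (15 spots) and 0.03 (16 spots). For all spots tested the medians were 0.02 and 0.03. MAPK13 spot b, for the p38 delta kinase of epithelia, stood at -2.45, -2.36, -2.42, -2.42 and -2.41 in CaCo-2 control arrays, against -2.50, -3.03, -2.49 and -2.47 in the 4 measured THP-1 control arrays. The CaCo-2 values were all higher, by 0.21 ± 0.08 (adjusted p = 0.163), but the lowest THP-1 value was that of replicate 3, at 0.704 of the other THP-1 arrays' median. Without that replicate the difference was 0.07 ± 0.02 (adjusted p = 0.113). MAPK13 spot a had means of -0.98 in CaCo-2 and -0.88 in THP-1 control arrays, a difference of -0.11 ± 0.07 (adjusted p = 0.405), so the gene's spots had opposite signs. MAPK8 spot b, for a JNK kinase, differed by 0.04 ± 0.03 in control cells (adjusted p = 0.397) and 0.05 ± 0.02 after TNF (adjusted p = 0.175).

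The MAPK-linked and phosphatase spots gave differences of similar size. MAPKAP1 spot a, for a subunit of the mTOR complex that activates AKT, stood at -2.17, -2.17, -2.08 and -2.16 on the 4 measured CaCo-2 control arrays and at -2.21, -2.21, -2.19, -2.23 and -2.24 on THP-1 control arrays. The groups did not overlap, and the difference of 0.07 ± 0.02 did not pass (adjusted p = 0.143). After TNF MAPKAP1 spot a ran from -2.20 over -2.13 to -2.09 in CaCo-2 and from -2.23 over -2.19 to -2.14 in THP-1, with overlap (0.05 ± 0.02, adjusted p = 0.15). MAPK8IP1 spot a, for a scaffold of the JNK branch, ran after TNF from -1.86 over -1.79 to -1.74 in CaCo-2 and from -1.86 over -1.85 to -1.82 in THP-1 (0.05 ± 0.02, adjusted p = 0.128). DUSP5 spot d was measured after TNF on 3 CaCo-2 arrays, from -2.92 to -2.68, and on 5 THP-1 arrays, from -2.92 to -2.88 (0.11 ± 0.04, adjusted p = 0.15). None of these passed. Values that do not overlap were found at 7 of 64 members in control cells, all higher in CaCo-2, against 9.19% of all spots (7.88% higher). After TNF they were found at 3 of 63, all higher in CaCo-2 (DUSP23, MAPK13 spot b and MAPK4 spot b), against 6.57% of all spots (5.97% higher). DUSP26, one of the 7, differed by 0.28 ± 0.18 with THP-1 control replicate 3 and by 0.04 ± 0.03 without it. DUSP16, a JNK phosphatase, was measured on 3 control arrays of each line, at -1.11, -0.89 and -1.12 in CaCo-2 and -1.15, -1.17 and -1.18 in THP-1 (difference 0.13 ± 0.05, adjusted p = 0.157). After TNF DUSP16 differed by 0.04 ± 0.03 (adjusted p = 0.540). Over the 19 DUSP spots tested after TNF the differences ran from -0.13, for DUSP28, to 0.13, for DUSP23. The class median was 0.02 in both comparisons. Of the kinases that p38 activates, MAPKAPK3 spot a stood at -2.28 to -2.21 on 3 CaCo-2 control arrays and at -2.21 to -2.10 on 5 THP-1 control arrays, with a difference of -0.08 ± 0.04 (adjusted p = 0.255).

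TNF moved no member past the threshold in either line. In CaCo-2 cells 56 members were tested and 0 passed, as did 0% of all 19479 spots tested, and 1 member had an unadjusted p under 0.05 against 3.67% of all spots. In THP-1 cells 78 were tested and 0 passed, as did 0% of all 21989 spots, with 1 member unadjusted against 2.38% of all spots. Median log2 fold changes by class lay between -0.05 and 0.02 in CaCo-2 and between -0.01 and 0.02 in THP-1. The test of the difference between the 2 responses gave 0 calls among 53 members and 0% of all 16931 spots (unadjusted 0 members against 2.43% of spots). The smallest p in that test were those of MAP3K1 (0.14 ± 0.08, CaCo-2 response minus THP-1 response), MAPK1IP1L spot a (0.07 ± 0.04), DUSP16 (-0.09 ± 0.06) and MAPK8IP2 spot a (-0.06 ± 0.04). The share of arrays above 0 did not pass for any member either, in CaCo-2 (1 unadjusted, MAPK11 spot a, against 0.885% of all spots) or in THP-1 (0 unadjusted, against 0.978%), and 0% of all spots passed there. That test had little room to pass: the smallest p it allows is 0.00794 for 5 against 5 arrays and 0.00126 for 7 against 5, before adjustment over all spots, so it says little about TNF.

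MAP3K7 spot a, for the kinase that couples the TNF receptor complex to JNK, p38 and NF-kB, differed by 0.01 ± 0.03 with TNF in CaCo-2 (95% interval -0.05 to 0.07) and by -0.00 ± 0.02 in THP-1 (-0.05 to 0.05). Across its 7 spots the estimates ran from -0.03 to 0.02 in CaCo-2 (6 tested) and from -0.02 to 0.04 in THP-1 (7 tested). MAP3K1, a MAP3 kinase of the JNK branch, had the smallest p in CaCo-2. Its levels were -2.71, -2.84, -2.43 and -2.74 on the 4 measured TNF arrays and -2.81, -2.85 and -2.86 on the 3 measured control arrays. One TNF array lay inside the control range, and the difference was 0.16 ± 0.06 (unadjusted p = 0.0204, adjusted p = 1.00). Without TNF replicate 5 the difference of MAP3K1 was 0.08. MAP3K14, the kinase of the non-canonical NF-kB branch, could be tested in THP-1 alone (-0.00 ± 0.04), and MAP3K8, which couples TNF and toll-like receptors to ERK, was above 0 on 3 arrays in all and was not tested.

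Among the MAP4 kinases, MAP4K1 differed by 0.01 ± 0.04 and MAP4K5 spot a by 0.01 ± 0.03 with TNF in THP-1, and MAP4K4 spot a by -0.01 ± 0.03 in CaCo-2 and -0.02 ± 0.02 in THP-1. Lower in the cascade the values were of the same size. MAP2K6, an activator of p38, could be tested in CaCo-2 alone (-0.05 ± 0.05). MAP2K4 spot a differed by 0.02 ± 0.03 with TNF in CaCo-2 and -0.01 ± 0.02 in THP-1. Of the JNK kinases, MAPK8 spot a stood at -1.46, -1.43, -1.41, -1.14 and -1.38 in CaCo-2 TNF arrays and at -1.5, -1.25, -1.37, -1.18 and -1.30 in CaCo-2 control arrays. The ranges overlapped nearly in full (difference -0.05 ± 0.05, 95% interval -0.16 to 0.07). Across the 3 MAPK8 spots the estimates in CaCo-2 ran from -0.05 to 0.04, 2 of them above 0. MAPK9 spot a differed by -0.01 ± 0.04 in CaCo-2 and -0.02 ± 0.03 in THP-1. MAPK7, the ERK-type kinase activated by MAP2K5, differed by 0.00 ± 0.03 in CaCo-2 and -0.00 ± 0.03 in THP-1. MAPKAPK2, the kinase through which p38 stabilises cytokine messages, was tested in THP-1 and differed by 0.01 ± 0.03. Values without overlap were found in CaCo-2 at 3 of 56 members (MAPK10 spot a, MAPK8 spot c and MAPK1IP1L spot a, all higher with TNF), against 1.75% of all spots (1.45% higher). In THP-1 1 of 78 did not overlap, DUSP11, lower with TNF, against 0.996% of all spots (0.628% lower). MAPK8IP2 spot a, for a JNK scaffold, ran from -0.94 over -0.89 to -0.87 in CaCo-2 TNF and from -0.91 over -0.84 to -0.78 in CaCo-2 control arrays (difference -0.05 ± 0.03, adjusted p = 1.00). At MAPK1IP1L spot a the levels were -1.95, -1.94 and -1.94 on 3 TNF arrays and -2.01, -1.98, -1.98 and -2.01 on 4 control arrays (difference 0.05 ± 0.03, adjusted p = 1.00).

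The phosphatases known as early response genes did not pass either. DUSP1, the nuclear phosphatase best known for its rapid induction, stood at -2.40, -2.45, -2.52 and -2.47 on the 4 measured CaCo-2 TNF arrays and at -2.44, -2.49, -2.43, -2.50 and -2.46 in CaCo-2 control arrays. The difference was 0.00 ± 0.03, with a 95% interval of -0.05 to 0.06. In THP-1 cells DUSP1 ran from -2.54 over -2.50 to -2.48 on the 6 measured TNF arrays and was at -2.51, -2.45, -2.40, -2.48 and -2.49 without. Most TNF arrays lay inside or just below the control range (difference -0.04 ± 0.02, 95% interval -0.08 to 0.01, adjusted p = 1.00). DUSP4 spot a, for a nuclear phosphatase of ERK, JNK and p38, had the smallest p in THP-1. It ran from -2.05 over -2.0 to -1.77 with TNF, against -2.07, -2.03, -1.98, -2.05 and -2.08 in control arrays (difference 0.07 ± 0.03, unadjusted p = 0.0472, adjusted p = 1.00). The groups overlapped, and without TNF replicate 8, the highest array, the difference was 0.04.

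Other phosphatases gave values of the same order. DUSP6 spot b, for the cytoplasmic ERK phosphatase, differed by 0.01 ± 0.03 with TNF in CaCo-2 and -0.02 ± 0.02 in THP-1. DUSP5 spot a, for a nuclear ERK phosphatase, differed by -0.02 ± 0.03 in CaCo-2 and -0.04 ± 0.03 in THP-1. DUSP10 spot a, for a phosphatase of JNK and p38, differed by -0.06 ± 0.07 and 0.04 ± 0.06, and DUSP16 by -0.08 ± 0.04 and 0.01 ± 0.04. The 2 largest estimates in THP-1, 0.26 ± 0.18 for DUSP26 and 0.24 ± 0.14 for MAP3K19, rested on THP-1 control replicate 3. At MAP3K19 that array stood at -3.18 and the other 4 control arrays between -2.02 and -1.98, against -2.01 to -1.96 with TNF. Without it the differences were 0.02 ± 0.03 for DUSP26 and 0.01 ± 0.02 for MAP3K19. MAPK13 spot b gave 0.13 ± 0.08 with TNF in THP-1, and -0.01 ± 0.02 without that array. DUSP28 gave -0.08 ± 0.07 in CaCo-2 and 0.05 ± 0.07 in THP-1.

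**Figure D4:**
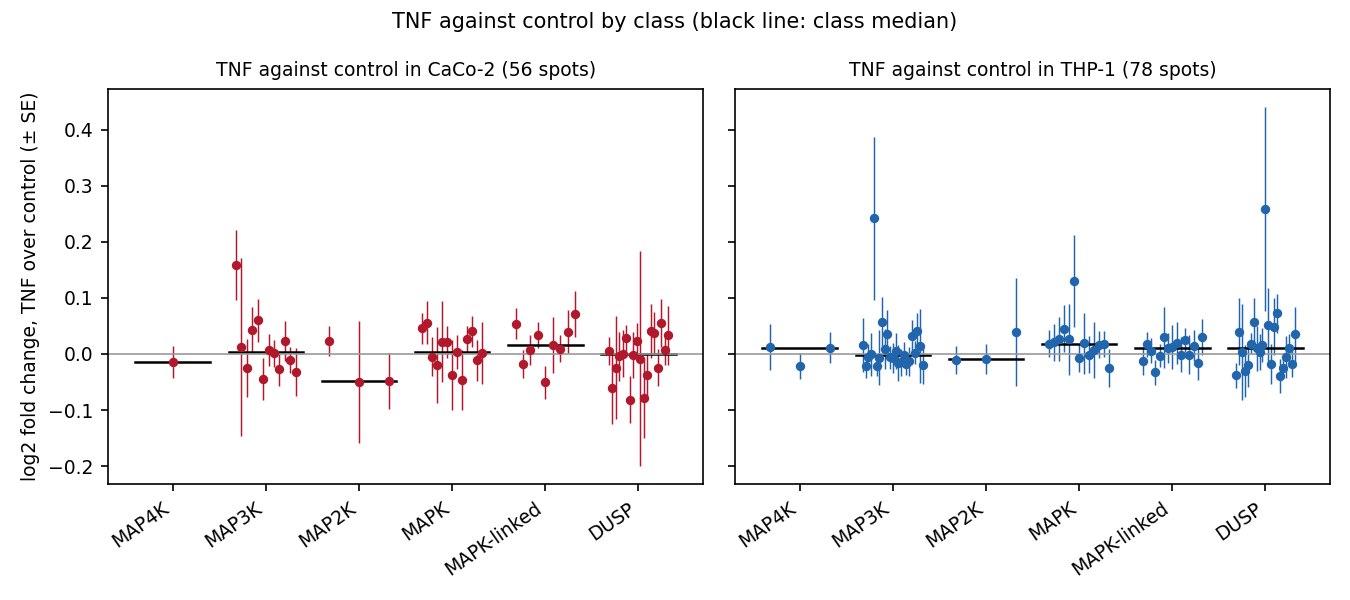
Log2 fold change of TNF over control for each tested member spot, by class, in CaCo-2 (56 spots) and THP-1 (78 spots) cells. Dots are spots with their SE and black lines the class medians. The points with long bars in THP-1 include MAP3K19 and DUSP26, whose values rest on THP-1 control replicate 3.

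MAP2K5 and DUSP10 spot b differed between sets of CaCo-2 arrays by more than any tested member differed between treatments or lines. Over all spots the CaCo-2 arrays deviated from their group means in 3 sets, each holding both treatments: control 1 with TNF 1 and 2, control 2, 3 and 4 with TNF 4 and 5, and control 5 with TNF 6. These sets come from the data and no label names them. Within sets the correlations of deviations were 0.34 to 0.84 over 14 pairs of arrays, and between sets -0.46 to 0.49 over 31 pairs, as a description across spots. Of 74 members with a value in each set, 2 had set means more than 0.25 apart, where the median was 0.07, and they were picked out after their values were seen. MAP2K5, the kinase that activates MAPK7, stood at -0.90 to -0.84 in the first set, -0.64 to -0.46 in the second and -0.31 to -0.21 in the third, against -0.82 to -0.57 over 12 THP-1 arrays. The sets did not overlap, and within each the treatments were mixed. DUSP10 spot b stood at -1.43 on CaCo-2 TNF replicate 6 and -1.40 on CaCo-2 control replicate 5, the 2 arrays of the third set, and between -1.98 and -1.85 on the other 8 CaCo-2 arrays. DUSP10 spot a had its lowest mean in the third set, at -0.27, against -0.10 and -0.12 in the others. The cause of the sets was not tested.

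**Figure D5:**
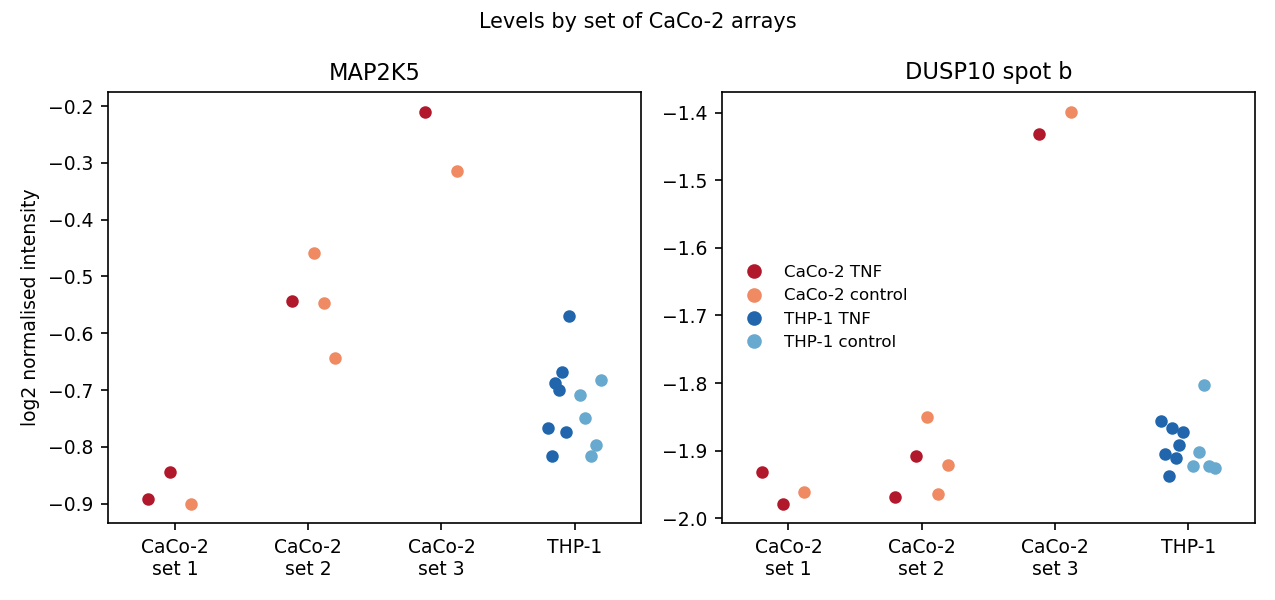
Log2 normalised intensity of MAP2K5 and DUSP10 spot b on every measured array, by the 3 sets of CaCo-2 arrays and in THP-1, coloured by group. MAP2K5 is higher in each set than in the one before, with both treatments in each, and DUSP10 spot b is high only on the 2 arrays of set 3.

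Of the 56 genes, 30 had several spots. MAP3K7 had 7 spots, and in control cells its 6 tested spots had differences of 0.00 to 0.07 (CaCo-2 minus THP-1), all above 0, and none passed. DUSP5 had 8 spots, of which 3 were tested in control cells (-0.00 to 0.04) and 3 after TNF (0.01 to 0.11). In arrays above 0, 3 of the DUSP5 spots leaned to CaCo-2 and 4 to THP-1. Of the 4 DUSP4 spots only spot a was measured on all 22 arrays, while spot b was at 0 on all 10 CaCo-2 arrays and above 0 on 4 of 12 THP-1 arrays (adjusted p = 0.772).

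Other genes of the pathway were taken from 3 lists. Of 34 upstream and scaffold genes 14 had a spot, of 35 downstream genes 22, and of 13 further negative regulators 9. With TNF, 0 spots passed in either line in any list. Unadjusted, the upstream list had 2 of 17 tested spots under 0.05 in CaCo-2 and 3 of 20 in THP-1, the downstream list 2 of 22 and 4 of 27, and the negative regulators 0 of 8 and 0 of 10, against 3.67% and 2.38% of all spots. The downstream ones included 2 spots of the immediate-early gene JUNB in THP-1 at 0.14 ± 0.04 and 0.22 ± 0.10 (adjusted p = 1.00 for both). Whether these values rest on THP-1 control replicate 3 was not tested. Between the lines in control cells 0 passed, and a JUNB spot was higher in CaCo-2 by 0.21 ± 0.11 (limma, adjusted p = 0.315). After TNF, where 3.53% of all spots passed, few list spots did, and no list is set apart by these counts. Of 19 tested upstream spots 1 passed, for the adaptor GRB2, lower in CaCo-2 by 0.12 ± 0.03 (log2 difference -0.12, adjusted p = 0.0174). Of 25 downstream spots 2 passed: JUNB, lower in CaCo-2 (-0.19 ± 0.04, adjusted p = 0.0232), and the transcription factor MEF2A, a target of MAPK7 and p38, higher (0.22 ± 0.06, adjusted p = 0.0485). The JUNB spot that passed was not the one given for control cells, so the opposite signs come from different spots. Of the negative regulators 0 of 8 passed on levels. In arrays above 0, 1 of their 16 spots passed, with 0 of 38 upstream and 0 of 38 downstream spots. Over all spots 0.284% passed, and 0.122% passed as less often above 0 in CaCo-2. The spot was for the phosphatase PPM1B, above 0 on 2 of 10 CaCo-2 and 12 of 12 THP-1 arrays (Fisher's exact test, adjusted p = 0.0496). Whether this call rests on single arrays was not tested.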

How the data were processed

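mRNA isolated from total RNA of both lines was reverse transcribed with a radioactive nucleotide and hybridised to cDNA arrays on nylon membranes, per the labels. The deposited intensity values of 34560 spots were used as the authors gave them; how images were read and whether values were normalised is not stated in the labels. Values below 0 were taken as codes and left out. Of 33 columns, 11 were sums on an about 3 times larger scale, and 10 of these repeated a single column (exactly double at 17.8% to 29.7% of spots above 0 in both, tolerance 0.0001), so the single column was used. One of these pairs had opposite labels and was left out, and THP-1 control replicate 3, a sum without a partner, was divided by 3.

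Exact zeros were first raised to the lowest positive value of their array. The intensities were then put on the log2 scale and quantile normalised here, so the raised zeros took part in the normalization. After it, the exact zeros were set to missing. Spots with at least 3 measured arrays in each group compared were fitted with limma 3.58.1 (R 4.3.3; lmFit, eBayes with a variance trend) in 1 fit over 4 groups, with two-sided p-values adjusted by Benjamini-Hochberg over every spot tested and a threshold of 0.05. The ± values on differences are standard errors. Arrays above 0 were compared by Fisher's exact test (scipy 1.17.1, Python 3.11.15), which was added after the values were seen. The fits were tested on simulated data.

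Spots named were the 4 with the smallest p in each comparison, the 2 brightest genes of each class, spots at 0 throughout one group and above 0 throughout another, preset core kinases and phosphatases, and genes with several spots; others are said to be chosen after their values were seen or belong to a count. The members and lists were chosen with earlier results of these data known. Alternatives covered the treatment of zeros, the minimum of measured arrays, normalization, a filter on dim spots, the samples fitted, the variance trend, array weights, the replicate number, paired columns, sets of CaCo-2 arrays and left-out arrays. Gene symbols came from the platform annotation, and all 106 member symbols matched RefSeq. Promoters were found for 49 of 56 genes.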

Additional observations from a re-analysis of the deposited data

Results flagged for a closer look

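In 68 groups of arrays searched, 11 held an array far from the others. A flat rate of 1 in 20 groups would give about 3.4. The spots share arrays, so the groups are not independent and this rate is no test. DUSP23 stood at -1.10 on CaCo-2 TNF replicate 4, with the others between -1.30 and -1.24, and at -1.31 on THP-1 control replicate 2, with the others between -1.40 and -1.38. MAPK12 spot a stood at -2.74 on CaCo-2 TNF replicate 1 (others -2.89 to -2.85) and at -2.92 on CaCo-2 control replicate 5 (others -2.84 to -2.81). DUSP4 spot a was high on THP-1 TNF replicate 8, at -1.77 (others -2.05 to -1.94), and MAPK8 spot a on CaCo-2 TNF replicate 5, at -1.14 (others -1.46 to -1.38).

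THP-1 control replicate 3, the only array taken from a summed column, was the array in 3 cases. These were MAPK13 spot b at -3.03 (others -2.50 to -2.47), MAP3K19 at -3.18 (others -2.02 to -1.98) and DUSP10 spot b at -1.80 (others -1.93 to -1.90). DUSP10 spot b was also high on CaCo-2 TNF replicate 6, at -1.43 (others -1.98 to -1.91), and on CaCo-2 control replicate 5, at -1.40 (others -1.96 to -1.85), the 2 arrays of the third set. The causes were not tested.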

How the results depend on the processing

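With TNF, 0 members passed in either line, or in the difference between lines, under every alternative run, left-out arrays included. Between the lines in control cells, 0 members became 2 with zeros raised to the lowest positive value, 1 with array weights, 1 with a filter on dim spots, 1 over spots above 0 on every array, 2 without the first array set and 0 to 1 with single arrays left out. After TNF, 1 became 2 with zeros raised, 4 with array weights, 0 without normalization, 2 with only the groups compared and 0 to 2 with single arrays left out. The 3 spots that differed in arrays above 0 became 1 without the first array set, 1 with zeros taken from the summed columns and 2 to 3 with single arrays left out. The 23 MAP3K spots above 0 less often in CaCo-2 became 15 with zeros taken from the summed columns, 23 without the first array set and 21 to 25 with single arrays left out.

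Class medians (log2) that moved by more than their spread are given by comparison. With TNF in CaCo-2, MAP4K gave 0.12 without normalization, 0.064 with median centring and 0.032 with paired columns averaged. MAP3K gave 0.097 without normalization. MAP2K gave -0.14 with zeros raised, 0.083 without normalization, 0.026 with centring and 0.00931 with the array set as a block. MAPK gave 0.034 with zeros raised, 0.087 without normalization, 0.039 with centring and 0.037 with paired columns averaged. MAPK-linked gave -0.025 with zeros raised, -0.050 over spots above 0 on every array, 0.11 without normalization, 0.062 with centring, -0.019 with paired columns averaged and -0.00593 with the array set as a block. DUSP gave 0.060 without normalization. With single arrays left out the ranges were -0.035 to 0.016 for MAP3K, -0.085 to 0.021 for MAP2K and -0.00785 to 0.026 for MAPK-linked. With TNF in THP-1, MAPK-linked gave -0.011 without normalization.

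Between the lines in control cells, zeros raised gave -0.094 for MAP4K, -0.13 for MAP3K, 0.082 for MAP2K and -0.073 for MAPK-linked. No normalization gave -0.095 for MAP4K, -0.075 for MAP3K, -0.084 for MAPK, -0.092 for MAPK-linked and -0.049 for DUSP. MAP2K gave 0.082 with the filter on dim spots, 0.12 without the first array set and -0.027 to 0.11 with single arrays left out, and MAPK 0.042 without that set and 0.000375 to 0.042 with single arrays left out. After TNF, zeros raised gave -0.084 for MAP4K, -0.040 for MAP3K, -0.076 for MAP2K and -0.046 for MAPK-linked. Paired columns averaged gave -0.055 for MAP4K and 0.044 for MAPK-linked, which also gave -0.028 over spots above 0 on every array and 0.057 with centring. MAP2K ran from -0.017 to 0.097 with single arrays left out.

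Single spots also turned sign. DUSP16 gave 0.81 with zeros raised and 0.029 without normalization for TNF in CaCo-2, 0.26 and 0.018 for the difference of responses, and -0.00383 without normalization between control lines. MAPK1IP1L spot a gave -0.22 with TNF in CaCo-2 and -0.55 in the difference of responses with zeros raised. MAPKAP1 spot a gave -0.15 with zeros raised and -0.10 without normalization between control lines. MAPK13 spot b with TNF in THP-1 gave -0.071 with zeros raised, -0.00556 without THP-1 control replicate 3 and -0.00556 to 0.18 over all left-out arrays. Raising zeros puts low values in place of missing ones; for the other changes the cause was not tested.

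Replicate numbers did not pair the arrays: same-numbered arrays deviated with r from -0.30 to 0.67 in CaCo-2 and from -0.37 to 0.31 in THP-1. The replicate block gave 0 calls for TNF in each line and in the difference, 0 between control lines and 1 after TNF, and the MAPK-linked median with TNF in THP-1 was -0.011 under it. Of 1182 alternative values 1090 kept their direction and side of the threshold or moved by less than their spread.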
